A study of Mus musculus with 6 samples.

Results

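The genes described here carry the integrated stress response and the supply of amino acids: 3 kinases that sense stress, 2 subunits of the phosphatase that opposes them, 6 stress targets and brakes, 9 enzymes of amino acid and folate metabolism, 6 amino acid transporters and 8 cytosolic tRNA synthetases. They were taken by gene symbol from the table of all genes, and all 34 of the 34 names were found among its 55416 rows. All 34 passed the filter on low counts, with at least 258 counts in every library. RNA was sequenced from primary keratinocytes of newborn mice of a C57BL/6J:129 hybrid background, either Cebpb knockout (C/EBPβ -/-) or wild type, with 3 libraries each. C/EBPβ is a transcription factor of the leucine zipper class. The pups were 1 to 2 days old, and the cells grew in low calcium (0.05 mM) with epidermal growth factor. Every culture received 10 mJ/cm2 of UVB light from a 312 nm lamp and was collected 8 h later, so the values compare genotypes after UVB and hold no unexposed cells.

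The integrated stress response begins when a kinase phosphorylates the initiation factor eIF2α. General translation then slows, while the messenger RNA of the transcription factor ATF4 is translated more. ATF4 binds DNA as a dimer, often with a C/EBP protein, at composite elements in genes for amino acid synthesis, uptake and tRNA charging. Ultraviolet light is known to provoke eIF2α phosphorylation in mammalian cells.

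Total counts were 81256192 to 92987497 in knockout libraries and 107757415 to 122797031 in wild type libraries. Cebpb had 78, 109 and 78 counts in knockout libraries, against 18184, 17628 and 12036 counts in wild type libraries, the direction the labels give. Levels are CPM, a gene's counts divided by the library's size, with sizes corrected by TMM (a trimmed mean of the log ratios between libraries). Errors are SDs over 3 libraries. Fold changes are knockout over wild type with their SE, and a gene was called at an adjusted p under 0.05 in edgeR's quasi-likelihood test over 17659 genes. Of those genes 48.6% were called, 24.8% higher and 23.7% lower. The median log2 fold change of all genes was 0.01 with TMM and 0.21 when libraries were scaled by their totals, and the share of calls that were higher was 51.1% and 72.5% under these scalings. All 6 keratinocyte markers were present, and 5 of 6 were lower in knockout cells. Melanocyte markers summed to 605 to 687 CPM in knockout and 691 to 780 CPM in wild type libraries, with 4 of 6 lower with TMM and 1 with library totals. Fibroblast markers summed to 4.01 to 4.44 CPM in knockout and 4.82 to 6.37 CPM in wild type libraries (Lum at 0). Immune markers summed to 0.347 to 0.477 CPM in knockout and 0.321 to 0.529 CPM in wild type libraries (Cd3e at 0). Endothelial markers summed to 4.46 to 5.32 CPM in knockout and 6.43 to 6.92 CPM in wild type libraries (Cdh5 and Emcn at 0). Transcripts of 4 Y-linked genes summed to 0.101 to 0.158 CPM in knockout and 60.7 to 68.1 CPM in wild type libraries, and 0 of the 34 genes lie on the X or Y chromosome. Y-linked signal split the libraries exactly as genotype did. Effects of sex and of genotype therefore cannot be told apart in these data, for genes on other chromosomes too. The part of melanocytes in the results was not tested, and in these bulk samples fewer cells of a type and less RNA per cell cannot be told apart.

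Among the 34 genes, 9 rose in knockout cells, 16 fell and 9 were not called. That is 26.5% higher and 47.1% lower, beside 24.8% and 23.7% of all genes tested. With library totals in place of TMM the split was 15 higher (44.1%) and 10 lower (29.4%), beside 36.7% of all genes higher and 13.9% lower. Which direction held more of the 34 genes thus depended on the scaling, while the share that fell lay above that of all genes under both. Groups of libraries did not overlap for 25 of the 34 genes, beside 56.4% of all genes tested. In 9 of them knockout libraries were the higher, beside 28.7% of all genes, and in 16 the lower, beside 27.6%. The median log2 fold change of the 34 was -0.06 with TMM and 0.14 with library totals. By role, with TMM, the serine pathway held 4 of 5 genes that rose. The transporters and synthetases held 9 of 14 that fell and 0 that rose. With library totals the serine pathway again held 4 of 5 that rose. Under that scaling 2 of 6 transporters rose and 2 fell, and 2 of 8 synthetases rose and 3 fell. The plot of fold changes by role shows the division with TMM.

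**Figure D1:**
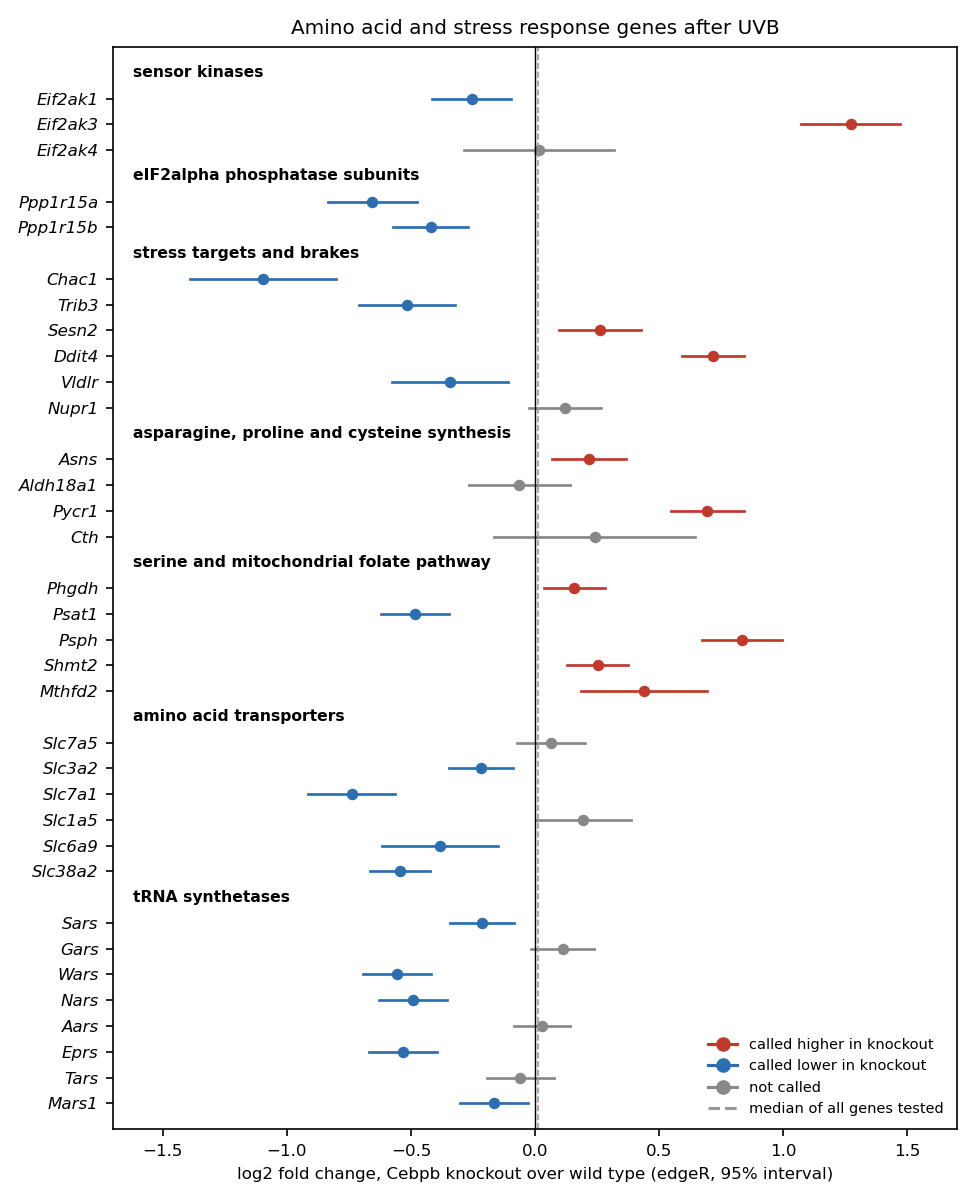
Log2 fold change of each of the 34 genes, Cebpb knockout over wild type, from edgeR (points) with its 95% interval (lines), grouped by role. Eif2ak3 stands furthest to the right at 1.27 and Chac1 furthest to the left at -1.10. The dashed line marks the median of all genes tested.

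Of the 3 sensor kinases, 1 rose, 1 fell and 1 was not called. Eif2ak3 (ENSMUSG00000031668) encodes PERK, which senses unfolded protein in the endoplasmic reticulum. It stood at 23.6, 24.7 and 23.9 CPM in knockout libraries, against 10.3, 10.5 and 9.10 CPM in wild type libraries. Every knockout library lay above every wild type library, and the rise was 1.27 ± 0.09 log2 units, or 2.41-fold (edgeR adjusted p = 1.33e-08). Eif2ak1, which encodes the haem-regulated kinase HRI, stood at 36.1, 33.0 and 33.5 CPM in knockout libraries, against 38.2, 43.4 and 41.0 CPM in wild type libraries. Its groups stood apart by a small margin and it fell by 0.26 ± 0.08 log2 units (edgeR adjusted p = 0.00978), but with library totals the value was -0.06 and was not called. In the GENCODE M21 annotation Eif2ak1 shares 487 exonic bases with Aimp2 on the opposite strand, and Aimp2 averaged 39.0 ± 1.72 CPM in knockout and 53.6 ± 1.36 CPM in wild type cells (n = 3 each). Without a stated strand setting, it is not known how reads in these shared bases were counted. Eif2ak4, which encodes GCN2, the sensor of uncharged tRNA, stood at 5.06, 4.32 and 5.03 CPM in knockout and 4.34, 5.48 and 4.41 CPM in wild type libraries. The groups overlapped, and the log2 fold change was 0.02 with a 95% interval of -0.29 to 0.32. Its sign was negative in 5 of the alternatives, with no call in any of them.

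Both subunits that direct protein phosphatase 1 to eIF2α fell. Ppp1r15a encodes GADD34, the stress-induced subunit, and stood at 47.5, 53.9 and 55.2 CPM in knockout libraries, against 93.5, 75.4 and 78.1 CPM in wild type libraries. Ppp1r15b encodes CReP, the constitutive subunit, and stood at 180.2, 191.9 and 203.1 CPM in knockout libraries, against 284.4, 235.1 and 250.5 CPM in wild type libraries. For neither gene did the groups overlap. The log2 fold changes were -0.66 ± 0.08 for Ppp1r15a (edgeR adjusted p = 7.88e-06) and -0.42 ± 0.07 for Ppp1r15b (edgeR adjusted p = 1.20e-04), and both calls held with library totals, at -0.46 and -0.22.

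The 6 stress targets and brakes went both ways: 2 rose (33.3%), 3 fell (50.0%) and 1 was not called, beside 24.8% and 23.7% of all genes. Chac1, whose product breaks down glutathione, stood at 2.95, 2.84 and 3.00 CPM in knockout libraries, against 6.60, 6.72 and 5.45 CPM in wild type libraries. This was the deepest fall among the 34 genes with TMM, at -1.10 ± 0.14 log2 units (edgeR adjusted p = 6.75e-06), and the knockout libraries lay close together. Trib3, a pseudokinase that binds ATF4, stood at 11.8, 11.8 and 12.2 CPM in knockout libraries, against 16.6, 17.5 and 16.9 CPM in wild type libraries, and fell by 0.52 ± 0.09 (edgeR adjusted p = 1.89e-04). Vldlr, a lipoprotein receptor, stood at 8.86, 8.29 and 8.92 CPM in knockout and 11.9, 11.2 and 9.91 CPM in wild type libraries. Its fall of 0.34 ± 0.11 (edgeR adjusted p = 0.0171) was not called with library totals (-0.14), without wild type replicate 1 (-0.28) or without knockout replicate 5 (-0.31).

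The inhibitors of mTORC1 signalling in this group moved the other way. Ddit4, which encodes REDD1, stood at 447, 468 and 407 CPM in knockout libraries, against 269, 269.6 and 266 CPM in wild type libraries. The wild type libraries were nearly equal, the knockout libraries all lay above them, and the rise was 0.72 ± 0.06 log2 units (edgeR adjusted p = 5.47e-08). Sesn2, which encodes a leucine-binding sestrin, stood at 292, 327 and 306 CPM in knockout and 294, 229.97 and 247 CPM in wild type libraries. Wild type replicate 1 reached into the knockout range. The rise of 0.26 ± 0.08 (edgeR adjusted p = 0.0105) was not called without wild type replicate 2 (0.19), wild type replicate 3 (0.23) or knockout replicate 5 (0.22). Nupr1, a small chromatin-associated stress protein, averaged 157 ± 13.1 CPM in knockout and 144 ± 8.24 CPM in wild type cells (n = 3 each). It was not called (0.12 ± 0.07, edgeR adjusted p = 0.16), but was with library totals (0.32) and without knockout replicate 4 (0.19).

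The composite element at which ATF4 and C/EBP proteins meet holds the letters TGATGNAA. Promoter windows of 250 bases before to 50 bases after a transcript start, from RefSeq on GRCm38.p6, were at hand for 28 of the 34 genes, and not for Ppp1r15b, Cth, Slc7a5, Slc1a5, Wars and Nars. These letters, sought on both strands, occurred in a window of 9 of the 28 genes (32.1%), beside 4.51% of 27025 genes with such windows. The list was picked by name for a pathway that acts through such elements, so the higher share is no independent result. A match lay in 4 of 6 stress targets and brakes, 2 of 3 asparagine and proline enzymes and 3 of 6 synthetases with windows. It lay in 0 of 5 serine pathway genes, 0 of 4 transporters, 0 of 3 kinases and 0 of 1 phosphatase subunit. The stretches around the matches are given on the strand of the gene, since they place the fold changes of these genes beside a possible C/EBP contact. Capitals mark the 8 matching letters, and a match on the opposite strand appears as its reverse complement.
Chac1 (chr2:119351023-119351082, plus strand): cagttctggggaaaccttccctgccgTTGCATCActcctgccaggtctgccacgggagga
Trib3 (chr2:152344028-152344057, minus strand): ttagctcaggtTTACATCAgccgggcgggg
Vldlr (chr19:27216794-27216853, plus strand): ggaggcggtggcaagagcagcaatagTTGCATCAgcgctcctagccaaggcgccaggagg
Nupr1 (chr7:126625547-126625606, minus strand): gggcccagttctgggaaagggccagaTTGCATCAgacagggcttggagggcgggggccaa
Asns (chr6:7693210-7693258, minus strand): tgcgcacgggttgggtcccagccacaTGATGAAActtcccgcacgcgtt
Pycr1 (chr11:120643818-120643877, minus strand): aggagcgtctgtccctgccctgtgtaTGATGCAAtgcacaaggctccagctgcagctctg
Gars (chr6:55037945-55038000, plus strand): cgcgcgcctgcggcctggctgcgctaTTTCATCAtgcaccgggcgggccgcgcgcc
Aars (chr8:111033704-111033763, plus strand): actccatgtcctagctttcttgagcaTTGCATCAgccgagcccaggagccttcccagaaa
Tars (chr15:11399659-11399699, minus strand): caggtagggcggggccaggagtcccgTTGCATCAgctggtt

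The match lay before the transcript start in 8 of these genes and after it in Trib3, and Aars held another match after its start. Of the 9 genes with a match, 2 were higher in knockout cells (Asns and Pycr1), 3 lower (Chac1, Trib3 and Vldlr) and 4 not called. Of the 19 with a window and no match, 7 were higher, 10 lower and 2 not called. Genes with a match thus went both ways or were not called, and those without one did too. The wider lists described below were read the same way, for genes with windows. A match lay in 0 of 15 other core genes, 2 of 7 other cytosolic synthetases and 0 of 14 mitochondrial synthetases. It lay in 3 of 13 other transporters, 0 of 15 folate and methionine cycle genes and 1 of 10 in the remaining list. A match is a description of letters and not a bound site, and no match says only that the letters are not in that window. The letters TTGCNNAA, a looser form of a C/EBP site, occurred in windows of 4 of the 28 genes (14.3%), beside 12.2% of all genes with windows, and in no case did they overlap a TGATGNAA match.

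**Figure D2:**
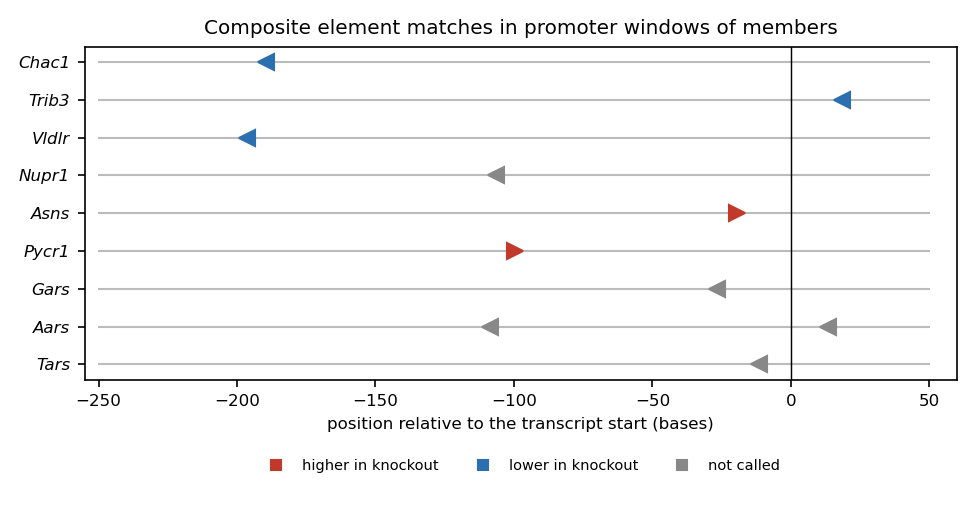
Position of each TGATGNAA match, in bases from the transcript start, in the promoter windows of the 9 genes that held one. Arrowheads point along the strand that carries the letters (right for the strand of the gene), and colour gives the call in knockout over wild type: 2 genes higher, 3 lower and 4 not called.

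Enzymes that make asparagine and proline were higher or not called. Asns (ENSMUSG00000029752), the asparagine synthetase, stood at 173, 175 and 207 CPM in knockout libraries, against 167, 152 and 157 CPM in wild type libraries. Knockout replicate 6 stood above the other two, and the rise of 0.22 ± 0.07 log2 units (edgeR adjusted p = 0.0171) was 0.13 and not called without it. It was also not called without wild type replicate 2 (0.19) or replicate 3 (0.20). Pycr1, which completes proline synthesis in mitochondria, stood at 68.5, 75.1 and 75.9 CPM in knockout libraries, against 47.9, 43.3 and 44.5 CPM in wild type libraries. The groups were well apart and the rise was 0.69 ± 0.07 (edgeR adjusted p = 4.76e-07). Aldh18a1, which makes the precursor of proline, averaged 26.5 ± 3.36 CPM in knockout and 27.7 ± 1.92 CPM in wild type cells (n = 3 each) and was not called. Its log2 fold change was -0.06 with TMM and 0.13 with library totals. Cth, which releases cysteine from cystathionine, stood at 18.4, 21.9 and 28.9 CPM in knockout and 24.4, 16.6 and 17.5 CPM in wild type libraries. The spread within both groups was wide, and its value of 0.24 ± 0.18 (edgeR adjusted p = 0.311) was called only with library totals (0.44) and without wild type replicate 1 (0.43).

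Along the route that builds serine from a glycolytic intermediate, the middle step fell and the last rose. The first step showed a small rise that was not called in every alternative. Phgdh catalyses the first step and stood at 437, 469 and 486 CPM in knockout and 434, 407 and 406 CPM in wild type libraries. The gap between groups was narrow, and the rise of 0.16 ± 0.06 log2 units (edgeR adjusted p = 0.0321) was not called by DESeq2 (0.15), without wild type replicate 2 (0.14) or 3 (0.14), or without knockout replicate 5 (0.15) or 6 (0.12). Psat1 (ENSMUSG00000024640), the transaminase of the second step, stood at 143, 153 and 167 CPM in knockout libraries, against 225, 206 and 217 CPM in wild type libraries. It fell by 0.48 ± 0.06 (edgeR adjusted p = 1.18e-05), and by 0.29 with library totals, where it was still called. Psph (ENSMUSG00000029446), the phosphatase that completes serine, stood at 106, 115 and 125 CPM in knockout libraries, against 71.0, 60.4 and 62.5 CPM in wild type libraries. Its rise of 0.84 ± 0.08 (edgeR adjusted p = 1.66e-07) was the largest among the 9 metabolic enzymes. Psph shares 452 exonic bases with Cct6a on the opposite strand in GENCODE M21, and Cct6a was lower in knockout cells, at 344 ± 7.15 CPM against 410.1 ± 22.3 CPM in wild type cells (n = 3 each). Here too it is not known how reads in the shared bases were counted.

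The mitochondrial enzymes that pass serine carbon to folate both rose. Shmt2, which turns serine into glycine, stood at 124, 129 and 133 CPM in knockout libraries, against 112, 107 and 105 CPM in wild type libraries, a rise of 0.25 ± 0.06 log2 units (edgeR adjusted p = 0.00185). Mthfd2, the dehydrogenase after it, stood at 43.7, 48.4 and 63.5 CPM in knockout libraries, against 41.0, 34.5 and 39.2 CPM in wild type libraries. Knockout replicate 6 was the highest of all 6 libraries, and the rise of 0.44 ± 0.12 (edgeR adjusted p = 0.007) was 0.27 without it, still called. The 4 rises in this pathway kept their sign and call with library totals. That scaling moved the median of all genes from 0.01 to 0.21, so it is no strict test of a rise. Phgdh kept its call in 8 of 13 alternatives.

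**Figure D3:**
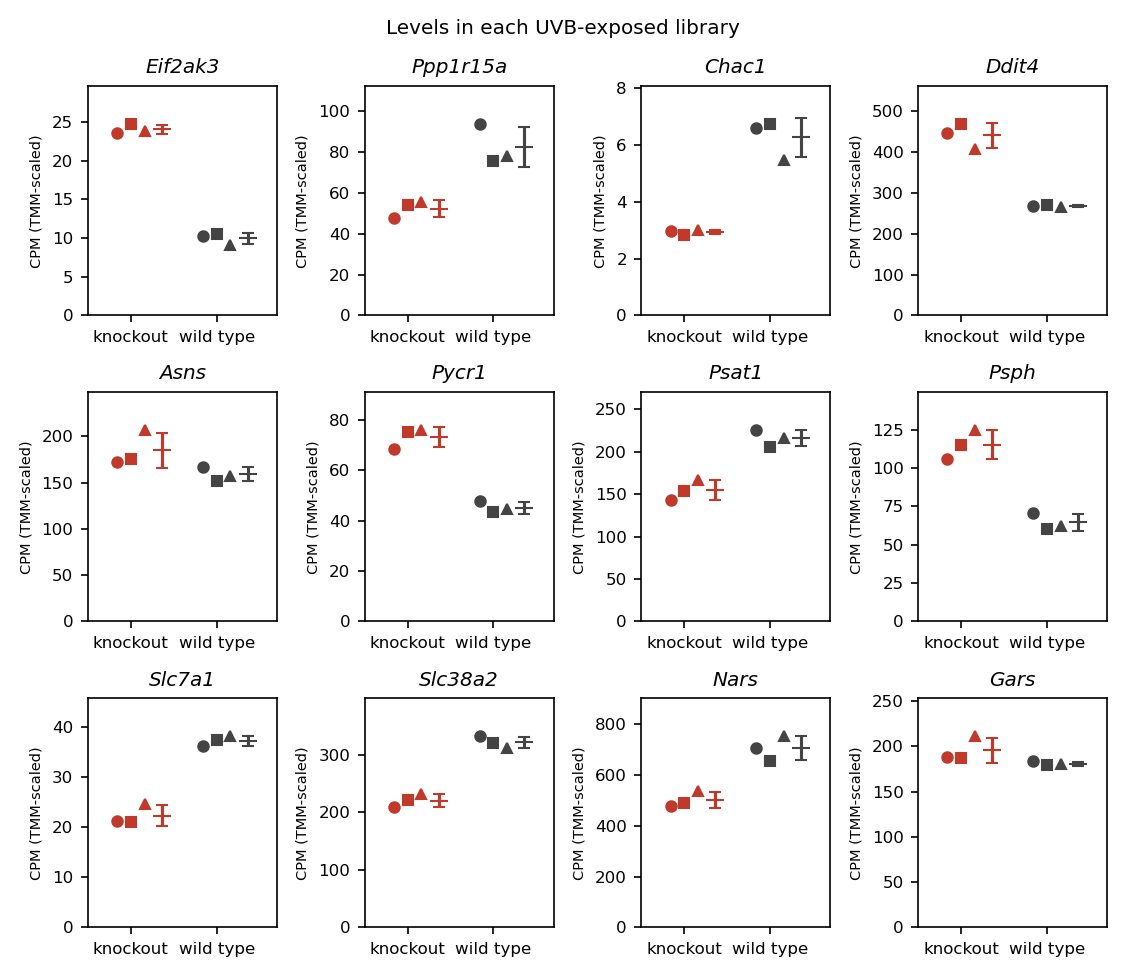
TMM-scaled CPM of 12 of the genes in each library, with knockout libraries (red; circle, square and triangle are replicates 4, 5 and 6) and wild type libraries (grey; replicates 1, 2 and 3), and the mean with its SD beside them. The 12 genes were picked for display, and groups do not overlap for any of them. Among all 34 genes groups did not overlap for 25, beside 56.4% of all genes tested. Eif2ak3, Ddit4, Asns, Pycr1 and Psph were called higher in knockout cells. Ppp1r15a, Chac1, Psat1, Slc7a1, Slc38a2 and Nars were called lower, and Gars was not called.

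Of the 6 transporters, 4 fell (66.7%) and 2 were not called with TMM, while with library totals 2 fell (33.3%) and 2 rose (33.3%). Of all genes 23.7% were lower and 24.8% higher with TMM, and 13.9% and 36.7% with library totals. Slc7a1, which carries arginine and lysine, stood at 21.2, 21.1 and 24.7 CPM in knockout libraries, against 36.2, 37.4 and 38.2 CPM in wild type libraries. It fell by 0.74 ± 0.08 log2 units (edgeR adjusted p = 1.69e-06). Slc38a2, which carries small neutral amino acids with sodium and is induced by amino acid shortage, stood at 209, 221 and 232 CPM in knockout libraries, against 332, 320.3 and 312 CPM in wild type libraries, a fall of 0.54 ± 0.06 (edgeR adjusted p = 9.29e-07). For both genes the groups were well apart, and both were called lower with library totals, at -0.54 for Slc7a1 and -0.35 for Slc38a2. Slc6a9, a glycine carrier, stood at 14.5, 14.8 and 17.2 CPM in knockout and 23.4, 18.9 and 18.3 CPM in wild type libraries, and fell by 0.38 ± 0.11 with TMM but was not called with library totals (-0.18).

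Slc3a2 and Slc7a5 encode the heavy and light chains of a carrier of leucine and other large neutral amino acids. Slc3a2 stood at 189, 206 and 211 CPM in knockout libraries, against 247, 228 and 229 CPM in wild type libraries. Its fall of 0.22 ± 0.06 (edgeR adjusted p = 0.0075) was not called with library totals (-0.02) or without knockout replicate 4 (-0.17). Slc7a5 stood at 93.6, 97.8 and 105 CPM in knockout and 99.8, 91.1 and 92.7 CPM in wild type libraries. The groups overlapped, and its log2 fold change was 0.06 with a 95% interval of -0.07 to 0.20, while with library totals it was called higher (0.26). Slc1a5, a glutamine carrier, averaged 31.4 ± 3.00 CPM in knockout and 27.4 ± 2.27 CPM in wild type cells (n = 3 each) and was not called (0.19 ± 0.09, edgeR adjusted p = 0.0894). It was called higher with library totals (0.39), without wild type replicate 1 (0.25) and without knockout replicate 4 (0.27).

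Of the 8 tRNA synthetases, which charge tRNA with amino acids, 5 fell and 3 were not called with TMM, while with library totals 3 fell and 2 rose. The 3 that fell under both scalings charge tryptophan, asparagine, and glutamate with proline. Wars stood at 66.2, 63.4 and 64.3 CPM in knockout libraries, against 99.1, 98.0 and 88.3 CPM in wild type libraries, a fall of 0.56 ± 0.06 log2 units (edgeR adjusted p = 2.39e-06). Nars stood at 478, 488 and 537 CPM in knockout libraries, against 707, 656 and 751 CPM in wild type libraries, and fell by 0.49 ± 0.06 (edgeR adjusted p = 8.76e-06). Eprs stood at 159.6, 161 and 186 CPM in knockout libraries, against 242.6, 239.8 and 249.5 CPM in wild type libraries, and fell by 0.53 ± 0.06 (edgeR adjusted p = 3.87e-06). Groups were well apart in each, and the values with library totals were -0.36 for Wars, -0.29 for Nars and -0.33 for Eprs.

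Sars, for serine, averaged 272 ± 15.4 CPM in knockout and 315 ± 17.9 CPM in wild type cells (n = 3 each), and its fall of 0.21 ± 0.06 was not called with library totals (-0.02). Mars1, for methionine, averaged 74.8 ± 5.15 CPM in knockout and 83.9 ± 1.41 CPM in wild type cells. Its fall of 0.17 ± 0.06 (edgeR adjusted p = 0.0438) was a borderline call: it turned to 0.03 with library totals, and it was not called with no filter on low counts (-0.17), at a mean of at least 1 CPM (-0.15), or without wild type replicate 1 (-0.17), 2 (-0.18) or 3 (-0.16) or knockout replicate 4 (-0.15) or 5 (-0.13). Mars1 shares 68 exonic bases with Ddit3 on the opposite strand in GENCODE M21. Gars, Aars and Tars, for glycine, alanine and threonine, were not called, at log2 fold changes of 0.11, 0.03 and -0.06 with 95% intervals of -0.02 to 0.24, -0.08 to 0.14 and -0.19 to 0.07. With library totals Gars (0.31) and Aars (0.23) were called higher, and Tars turned to 0.14 without a call. These are the 3 synthetases with a TGATGNAA match above, among 6 with a promoter window. Sars, Eprs and Mars1 had windows without a match. Wars and Nars had no window, so whether they hold a match is not known. Summed over the 8 genes, levels were 1531 to 1670 CPM in knockout and 1864 to 1997 CPM in wild type libraries.

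Other genes of the same pathways were read from lists of the wider response. Of 18 other core genes, 5 rose (27.8%), 10 fell (55.6%) and 3 were not called with TMM, beside 24.8% and 23.7% of all genes. With library totals 7 rose (38.9%) and 6 fell (33.3%), beside 36.7% and 13.9% of all genes. Atf4, the central transcription factor, fell by 0.74 ± 0.06 log2 units, with 83.9, 89.2 and 90.9 CPM in knockout libraries against 152, 146 and 142 CPM in wild type libraries. Its partner and target Atf5 fell by 0.27 ± 0.07 with TMM but was not called with library totals (-0.07). Eif2ak2, which encodes the RNA-sensing kinase PKR and is induced by interferon, rose by 0.96 ± 0.17, at 85.0, 74.6 and 86.4 CPM in knockout libraries against 37.0, 34.01 and 55.8 CPM in wild type libraries. All 5 subunits of eIF2B, the exchange factor that phosphorylated eIF2 blocks, fell with TMM, by 0.24 to 0.83. All 5 were below 0 with library totals too, where 3 were called, and Eif2b3 fell the most, at 8.01 ± 0.556 CPM in knockout and 14.2 ± 1.56 CPM in wild type cells. The adaptor gene Nck2 rose by 0.46. Ddit3, which encodes CHOP, had 17.6, 19.6 and 20.3 CPM in knockout and 16.6, 17.0 and 16.3 CPM in wild type libraries and was not called (0.20 ± 0.09, edgeR adjusted p = 0.0732), but was with library totals (0.40) and at a mean of at least 1 CPM (0.22). Cebpg, a C/EBP partner of ATF4, rose by 0.23 ± 0.07 and was not called without wild type replicate 2 (0.16) or without knockout replicate 5 (0.21) or 6 (0.21).

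Of 12 other cytosolic synthetases, 1 rose and 8 fell (median -0.30), and with library totals 2 rose and 5 fell. Hars, for histidine, fell by 0.72, at 79.9 ± 1.91 CPM in knockout and 132 ± 10.6 CPM in wild type cells, and Farsa, for phenylalanine, fell by 0.51. Vars, for valine, rose by 0.40, at 186 ± 5.34 CPM in knockout and 140.4 ± 6.79 CPM in wild type cells (n = 3 each). Of 17 mitochondrial synthetases, 3 rose (17.6%) and 5 fell (29.4%), with a median of -0.11, beside 24.8% and 23.7% of all genes. With library totals 5 rose (29.4%) and 1 fell (5.9%), beside 36.7% and 13.9% of all genes. Cars2 rose by 0.54 and Pars2 by 0.43, while Aars2 fell by 0.52 and Yars2 by 0.42, the last not called with library totals (-0.22). Over all 20 cytosolic synthetases listed, 13 fell (65.0%), beside 23.7% of all genes, and with library totals 8 of 20 fell (40.0%), beside 13.9% of all genes.

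Of 15 other transporters tested, 7 rose (46.7%), 3 fell and 5 were not called (median 0.66), beside 24.8% of all genes higher and 23.7% lower. With library totals 9 rose and 2 fell (13.3%), beside 36.7% of all genes higher and 13.9% lower, so the share that fell was near that of all genes under both scalings. Slc1a1, a carrier of glutamate, aspartate and cysteine, rose by 2.72 ± 0.13 log2 units, at 17.2, 15.7 and 17.9 CPM in knockout libraries against 2.28, 2.48 and 2.93 CPM in wild type libraries. Slc38a1, a glutamine carrier, rose by 1.44, at 5.43 ± 0.988 CPM in knockout and 2.00 ± 0.446 CPM in wild type cells. Slc38a9, which signals lysosomal arginine to mTORC1, fell by 0.56. Slc36a4 fell by 0.37 and was not called with library totals (-0.17), without wild type replicate 2 (-0.34) or 3 (-0.35), or without knockout replicate 5 (-0.29) or 6 (-0.36).

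Of 17 other genes of the folate and methionine cycles, 6 rose (35.3%), 4 fell (23.5%) and 7 were not called (median -0.08, and 0.12 with library totals). Of all genes tested 24.8% were higher and 23.7% lower, so the share that fell was near that of all genes. Mthfd1l, which acts after Mthfd2 in mitochondria, rose by 1.03 ± 0.09 log2 units, at 62.0, 68.1 and 73.8 CPM in knockout libraries against 37.1, 32.0 and 30.4 CPM in wild type libraries. Aldh1l1, a cytosolic formyl-folate dehydrogenase, rose by 0.93. Shmt1, the cytosolic counterpart of Shmt2, fell by 1.21 ± 0.14, at 3.98 ± 0.597 CPM in knockout and 9.17 ± 1.02 CPM in wild type cells, and Aldh1l2, the mitochondrial counterpart of Aldh1l1, fell by 0.35 with TMM but was not called with library totals (-0.15). Of 14 genes for proline, glutamine, aspartate and branched-chain amino acids, 5 rose (35.7%), 4 fell (28.6%) and 5 were not called. Their median was -0.05, and 0.14 with library totals. The share that fell was again near that of all genes with TMM, but was 21.4% beside 13.9% with library totals. Glul, the glutamine synthetase, rose by 1.28 ± 0.08, at 41.6 ± 1.67 CPM in knockout and 17.1 ± 0.624 CPM in wild type cells, and Bcat2 rose by 0.75. Prodh, which degrades proline, fell by 1.01.

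**Figure D4:**
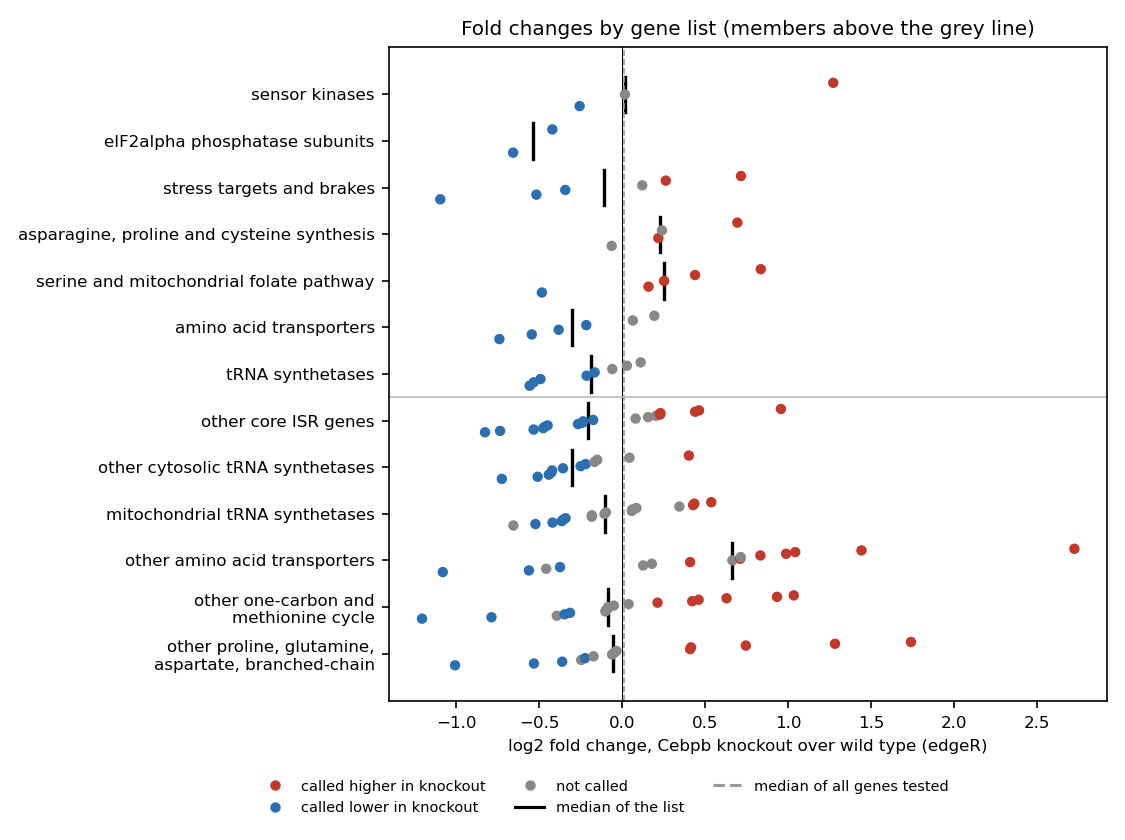
Log2 fold change of every tested gene by list, Cebpb knockout over wild type from edgeR, with the lists of the 34 genes above the grey line and the wider lists below it. Black bars are list medians, which run from -0.54 for the phosphatase subunits to 0.66 for the other transporters, and the dashed line is the median of all genes tested (0.01).

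Libraries of a genotype did not differ evenly over the 34 genes. Knockout replicate 6 was the highest knockout library for 26 of the 34 (76.5%), beside 33.7% of all genes tested, and the lowest for 1. Wild type replicate 1 was the highest wild type library for 21 (61.8%), beside 35.95% of all genes tested. Without knockout replicate 6, 7 genes were called higher and 16 lower, and without wild type replicate 1, 11 and 14. The cause of this unevenness was not tested.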

How the data were processed

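Total RNA of 6 UVB-exposed keratinocyte cultures was sequenced as paired 150 bp reads, per the labels' protocols. The authors deposited a table of unnormalised read counts by gene, with a column for each library. The submitters' processing notes name FastQC, STAR, HTSeq and DESeq2 and the builds mm39 and GRCm39, but tool versions, strand setting and annotation release were not given in the sources used here. Symbols were matched by identifier, 3 of them through synonyms. Counts were tested with edgeR 4.0.16 (R 4.3.3): filterByExpr at a minimum of 10 counts, TMM scaling, the robust quasi-likelihood test with genotype as the only factor, and Benjamini-Hochberg adjustment over 17659 genes. The fit was tested on simulated counts with known changes, rises and falls in equal number and the same variation for every gene. Such a simulation does not bear on the choice of scaling, on which these results depend. SEs are the fold change over the square root of F, and 95% intervals follow from them.

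No label ties a library to an animal or dish of its own. The p-values therefore reflect variation among these 6 libraries, part of which may be technical. Within a genotype, library pairs differed by more than sampling noise (chi-square over its degrees of freedom 19.7 to 46.9).

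The members and lists were chosen with earlier results of these data known. The text names all 34 members, Cebpb, Atf4, Atf5, Ddit3, Cebpg and Eif2ak2, and in each wider list up to 2 called rises and 2 called falls of largest size with a mean of at least 2 CPM, of which 1 is not reported here. Alternatives were DESeq2 size factors, library totals, no filter, a mean of at least 1 CPM, DESeq2 1.42.0, limma voom (limma 3.58.1), thinning to the smallest total, leaving out each library, and promoter windows cut at the start. Coordinates are RefSeq's on GRCm38.p6, an older build than that of the counts, and GENCODE M21 served for exon overlaps only.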

Additional observations from a re-analysis of the deposited data

How the results depend on the processing

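No paired analysis was possible because replicate numbers do not repeat between genotypes. Among the 34 genes, 6 of 9 rises and 10 of 16 falls kept direction and call under all 13 alternatives. Library totals moved the counts most, to 15 higher and 10 lower, and the cause was not tested. Leaving out single libraries gave 6 to 11 higher, 14 to 16 lower and 7500 to 8322 genes called in all, against 8579 with every library. Signs turned with library totals for Aldh18a1 (0.13), Tars (0.14) and Mars1 (0.033). For Eif2ak4 the sign turned with thinned libraries (-0.018) and without wild type replicate 1 (-0.047) or 3 (-0.04) or knockout replicate 4 (-0.02) or 6 (-0.02), with no call in any. Of the 9 genes with a TGATGNAA match, 8 held one before the start. Changes under about 0.2 log2 units, the shift between scalings, cannot be given a firm direction.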
